A study of Homo sapiens with 8 samples.

Results

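ATP-binding cassette (ABC) proteins were followed in endothelial cells made from a human induced pluripotent stem cell line. Members were the protein-coding genes of the deposited table whose symbol was ABC, a letter from A to G and a number, and 45 of the 30386 listed genes met this rule. They comprised 12 genes of subfamily ABCA, 9 of ABCB, 11 of ABCC, 4 of ABCD, 1 of ABCE, 3 of ABCF and 5 of ABCG. All 45 matched GENCODE 29 (GRCh38) by symbol, start and end. Expression values did not enter the rule.

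All cells came from WTC-TJP1, an established human line whose second name is that of the gene for a tight junction protein, and the labels do not say what was done to that gene, if anything. A group of 4 samples, termed iEC, held endothelial cells. The other group of 4, termed iREC, held retinal endothelial cells from a differentiation described as matched to the first, and both groups were analysed at passage 1. Samples of each group carried the letters C, D, E and F, and no agent, dose or genotype separated them in the labels. All 8 samples came from 1 line, and no label says whether letters stand for separate differentiations, so the p-values below measure the spread between these samples, which may be technical.

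ABC proteins bind and split ATP with paired nucleotide-binding domains, and most use this energy to carry lipids, drugs, conjugates or peptides across a membrane. In endothelium of the brain and retina the drug pumps ABCB1 (P-glycoprotein) and ABCG2 (breast cancer resistance protein) sit on the blood-facing membrane and limit the entry of many compounds into the tissue. Subfamily ABCA and ABCG1 move cholesterol and phospholipids, ABCC proteins export conjugates and nucleotides, ABCD proteins serve peroxisomes and lysosomes, and ABCE and ABCF proteins lack membrane spans and act in translation.

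Library totals ran from 14877502 to 16971865 counts in iEC and from 13739364 to 15987839 in iREC, and 3 counts corresponded to 0.177 to 0.214 CPM (counts scaled to a common library size after TMM). Expression of 14 endothelial markers summed to 8043 to 10077 CPM in iEC. In iREC it summed to 8433 to 10954 CPM in samples C, D and E and to 4958 CPM in iREC F. Mean PECAM1 was 2233 CPM in iEC and 754 in iREC, and mean CDH5 was 1351 and 799, so defining endothelial genes were present in both groups. Of the 14, 4 were called higher in iREC, among them EMCN (means of 4.21 and 432 CPM) and TEK (58.9 and 833), and 5 lower. The sample iREC F also held the highest sums of the epithelial, fibroblast, pluripotency, retinal, and pericyte and smooth muscle lists. Its epithelial list of 9 genes stood at 4934 CPM (303 to 1124 in the other iREC samples, 393 to 1177 in iEC). Its fibroblast list of 7 listed genes stood at 2661 CPM (70.9 to 448, and 21.6 to 230 in iEC), and its pluripotency list of 8 at 519 CPM (54.4 to 184, and 40.0 to 92.1). A pericyte and smooth muscle list of 12 genes had a higher sum in every iREC sample than in iEC (234 to 342 CPM). It summed to 464 to 917 CPM in iREC C, D and E and to 1847 in iREC F. Its genes did not all rise, since of 9 tested 4 were called higher and 2 lower. In that list KCNJ8 had means of 0.0983 and 0.304 CPM and ABCC9 of 0.261 and 0.0819, while TAGLN stood at 34.6 and 619 CPM. A hepatocyte and yolk sac list of 6 listed genes summed to 8.80 to 27.7 CPM in iEC and 18.2 to 78.3 in iREC. Of its 3 tested genes, TTR (means of 0.0488 and 40.6 CPM) and TF (0.0658 and 1.55) were called higher and APOB (17.2 and 3.25) lower, while ALB was below the filter. A myeloid list of 9 genes summed to 0.429 to 1.24 CPM in iEC and 2.42 to 3.73 in iREC. Its 1 tested gene, PTPRC, had means of 0 and 1.63 CPM and was called higher, and 5 of the 9 were at or under 3 counts in every sample. The part of these cell-type markers in the ABC results was not tested, and in bulk RNA fewer cells of a type and less RNA per cell cannot be told apart.

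Among the 34 members that passed the filter on low counts, 12 differed between iREC and iEC at an edgeR adjusted p under 0.05, and the remaining 11 of the 45 were too scarce to test. The 5 higher in iREC were ABCA6, ABCA9, ABCB1, ABCC6 and ABCG2, and the 7 lower included ABCA3, ABCA7, ABCB4, ABCC5, ABCF1 and ABCG1. Of the 12, 9 differed by at least 2-fold, and over all tested genes 2344 of the 3829 called did so. The share called was 35.3% of tested members against 25.0% of all 15330 genes tested, and against 27.1% of tested protein-coding genes. By direction, 13.2% of all tested genes were higher and 11.7% lower. The 2 groups did not overlap in CPM for 10 tested members, and the same was true of 29.1% of all tested genes. The median log2 fold change was 0.051 over the members and 0.020 over all tested genes. Changes in the family thus ran in both directions, with a centre close to 0.

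**Figure D1:**
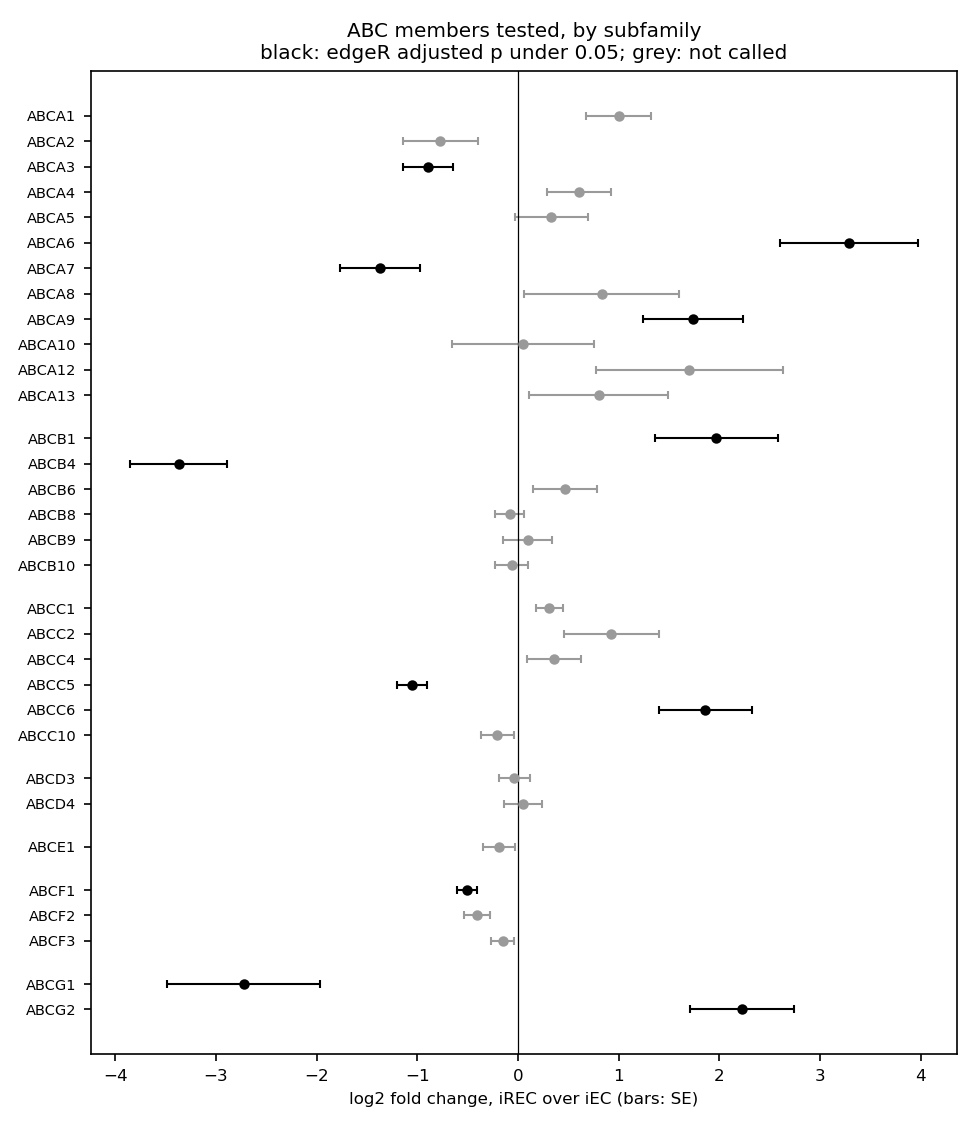
Log2 fold change of iREC over iEC (x axis) for 32 of the 34 tested members, grouped by subfamily on the y axis. Points are edgeR estimates and bars their SE. Black members passed an adjusted p of 0.05 and grey ones did not. The black points lie on both sides of 0, from ABCB4 at -3.37 to ABCA6 at 3.29.

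Calls differed in how much they rested on single samples. ABCA6, ABCB4, ABCC5, ABCF1 and ABCG2 were called in each of the 8 fits that left 1 sample out, and the other 7 were lost in at least 1 of them. Without iREC F, the sample with the marker sums described above, 10 of the 12 calls held and ABCA3 and ABCB1 were lost. The number of members called ran from 7, without iEC E or without iREC D, to 13, without iREC F. The authors' deposited table listed 14 members at an adjusted p under 0.05, which held all 12 called here plus ABCA1 and ABCD2. Of all listed genes, 16.3% were under that threshold there.

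**Figure D2:**
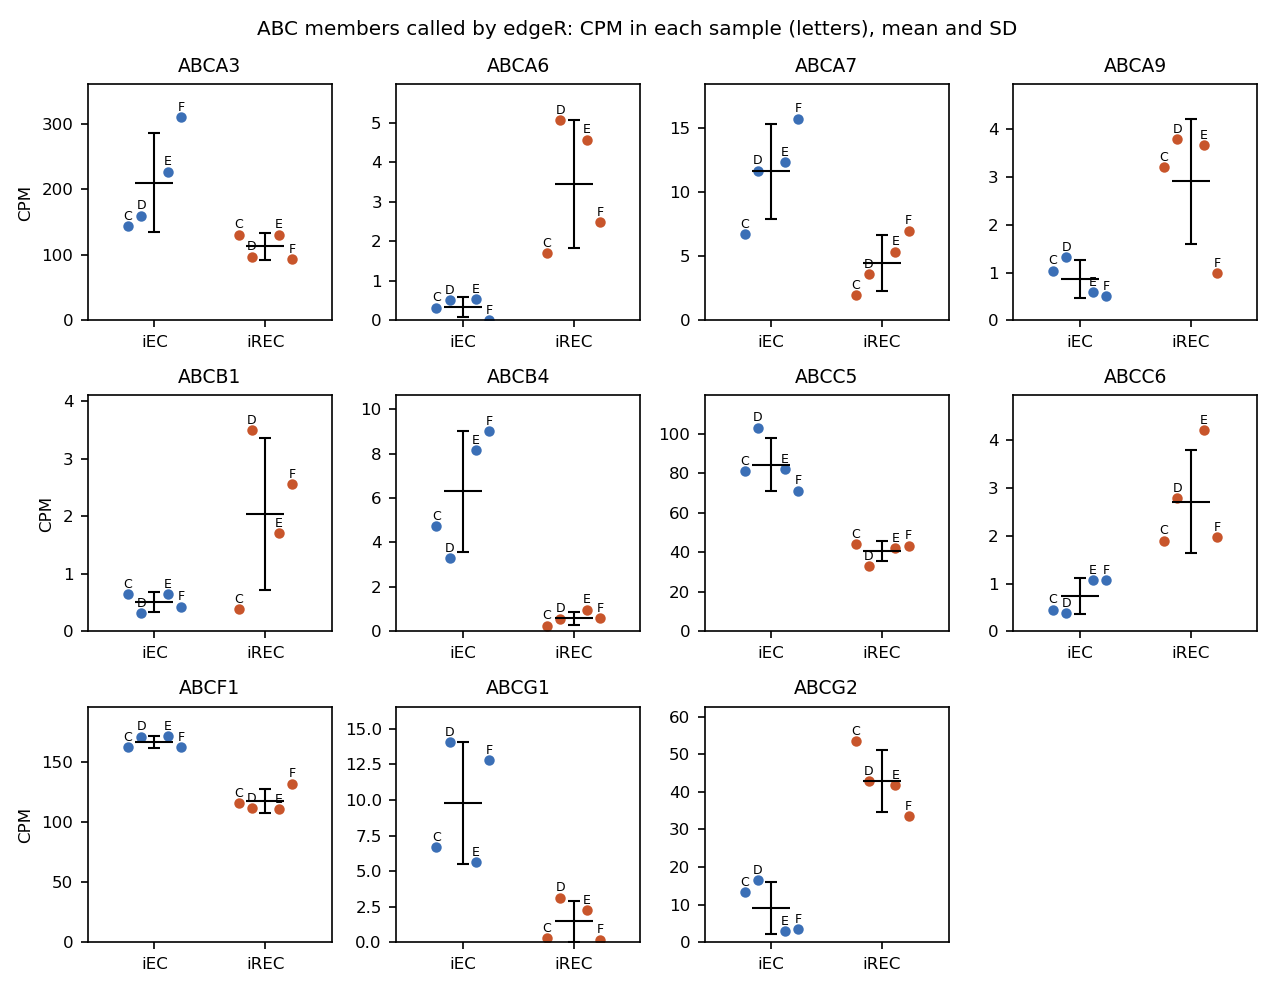
CPM (y axes, each starting at 0) of 11 of the 12 called members in the 4 iEC and 4 iREC samples. Points are samples with their letters, the long line is the mean and the bars are the SD. ABCG2, ABCB4, ABCC5 and ABCF1 show no overlap between the groups, whereas iREC C lies among the iEC samples for ABCB1.

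Between genes, levels are compared as CPM per kb of gene length. In iEC the highest member was ABCF1 at 37.0 ± 1.1 CPM per kb (SD, n = 4), ahead of ABCE1 at 27.9 ± 5.5, ABCA3 at 26.9 ± 9.7, ABCB10 at 13.0 ± 1.4 and ABCC1 at 12.8 ± 1.2. In iREC the order began with ABCF1 at 26.0 ± 2.2, ABCE1 at 24.5 ± 2.5, ABCA1 at 19.4 ± 8.4, ABCC1 at 15.9 ± 2.3 and ABCA3 at 14.5 ± 2.6. The top 2 of each group are soluble translation factors. In iEC, ABCE1 and ABCA3, and ABCB10 and ABCC1, differed by less than the larger of their SDs. In iREC the same held for every pair of neighbours in the order given, ABCF1 and ABCE1 included. ABCG2 moved from rank 18 to rank 8 in CPM per kb, and ABCC5 moved from rank 8 to rank 15. A level over 1 CPM per kb was reached by 21 members in iEC and 19 in iREC, and a level over 5 by 13 and 12.

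**Figure D3:**
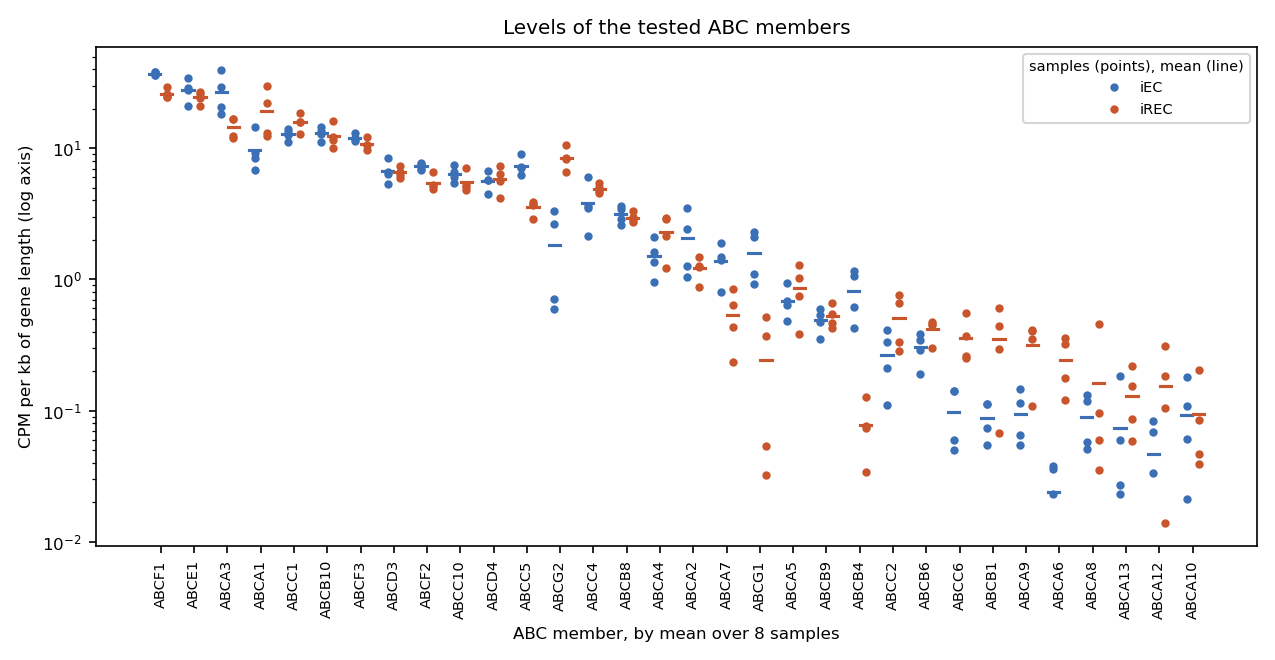
Level of 32 of the 34 tested members in CPM per kb of gene length (log y axis), ordered on the x axis by the mean over all 8 samples. Points are samples, lines are group means, and samples with no count are not drawn on the log axis (ABCA6 in iEC F and ABCA12 in iEC C). ABCF1 has the highest mean in both groups, and the groups lie far apart for ABCG2, ABCG1 and ABCB4.

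In subfamily ABCG, ABCG2 rose in iREC and ABCG1 fell. ABCG2 is a pump that works as a pair of identical chains and exports drugs, porphyrins and urate, and its gene (ENSG00000118777) lies on chromosome 4 from 88090264 to 88231322, minus strand. Its CPM was 13.4, 16.6, 3.02 and 3.58 in iEC C to F and 53.4, 42.8, 41.7 and 33.5 in iREC C to F. Every iREC sample was above every iEC sample, and iEC itself split into 2 higher samples (C and D) and 2 lower ones (E and F). The mean was 9.15 ± 6.89 CPM in iEC and 42.8 ± 8.15 in iREC (SD, n = 4). The log2 fold change was 2.23 with an SE of 0.52, a 4.68-fold difference with an edgeR adjusted p of 0.013. Leaving out 1 sample at a time gave adjusted p values from 0.00666 to 0.0328.

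The RefSeq table of GRCh38.p14 gives several start sites for ABCG2, and counts per gene do not show which was used. The 220 bases printed here, from 250 to 31 bases before the outermost start (chr4:88231657-88231876, minus strand), hold no annotated exon and none of the motifs searched, so no base is in capitals.
ABCG2: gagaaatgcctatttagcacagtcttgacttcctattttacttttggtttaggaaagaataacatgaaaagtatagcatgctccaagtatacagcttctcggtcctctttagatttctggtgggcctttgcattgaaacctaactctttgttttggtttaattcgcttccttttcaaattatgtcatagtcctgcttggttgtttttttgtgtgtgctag
This window had a GC content of 36.8%, whereas the window of the start at base 88158859 had 74.1%, with 2 GC boxes and 2 cores of the aryl hydrocarbon receptor element. The windows of the starts at bases 88158639 and 88158909 were alike to the latter in GC content, at 74.1% and 70.5%, and that of base 88159290 had 42.3%. The window of base 88158639 held no GC box. The outermost window was thus unlike those rich in G and C.

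ABCG1 exports cholesterol to high-density lipoprotein and lies on chromosome 21 from 42199689 to 42297244, plus strand. It stood at 6.70, 14.1, 5.62 and 12.8 CPM in iEC C to F and at 0.327, 3.14, 2.26 and 0.197 CPM in iREC C to F. All iREC samples were below all iEC samples, and iREC C and F, with 5 and 3 reads, were near the limit of 3 counts. The log2 fold change was -2.72 with an SE of 0.76, 6.61-fold higher in iEC, with an edgeR adjusted p of 0.0275. Leaving out iEC D or iEC F ended the call (adjusted p 0.0592 and 0.0585), and without iREC D the log2 fold change was -3.38. The other members of the subfamily were too scarce to test. ABCG5 and ABCG8, which form the sterol exporter of gut and liver from overlapping genes on chromosome 2, had 3 and 11 reads in all 8 samples, and ABCG4 had 41.

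In subfamily ABCB, 7 of 9 members were tested, 3 were called, ABCB1 rose and ABCB4 fell. ABCB4 carries phosphatidylcholine to the outer leaflet of the membrane, best known in the bile canaliculus, and its gene is on chromosome 7 from 87401697 to 87480435, minus strand. It stood at 4.75, 3.29, 8.17 and 9.02 CPM in iEC C to F and at 0.262, 0.571, 0.977 and 0.590 CPM in iREC C to F. No iREC sample reached 1 CPM, and no iEC sample was below 3. The difference was 10.3-fold, with a log2 fold change of -3.37, an SE of 0.48 and an edgeR adjusted p of 0.00107. It stayed called without each sample in turn, with adjusted p from 0.00111 to 0.00605.

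ABCB1 lies 23197 bases from ABCB4 on the same strand, from 87503633 to 87713323. Its reads numbered 10, 5, 11 and 6 in iEC C to F and 6, 49, 28 and 39 in iREC C to F. In CPM this was 0.650, 0.316, 0.651 and 0.429 against 0.393, 3.497, 1.71 and 2.55. Samples D, E and F of iREC exceeded every iEC sample, while iREC C lay within the iEC range. Means were 0.512 ± 0.167 and 2.04 ± 1.32 CPM (SD, n = 4). The rise was 1.97 on the log2 scale (SE 0.61, edgeR adjusted p 0.0418). The call held in 1 of the 8 fits that left a sample out, that without iREC C (adjusted p 0.0066), and was lost without any of the others (0.0706 to 0.128). It was also lost with limma-voom (0.149). Of the 2 neighbours, then, the abundant one in iEC was ABCB4 and in iREC ABCB1: in CPM per kb, ABCB1 went from 0.0881 to 0.351 and ABCB4 from 0.816 to 0.0776. Both means were below those of ABCG2, at 1.81 and 8.49 CPM per kb, and in iREC far below in every sample. In iEC E and iEC F, however, ABCB4 (1.06 and 1.17) was above ABCG2 (0.598 and 0.710).

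**Figure D4:**
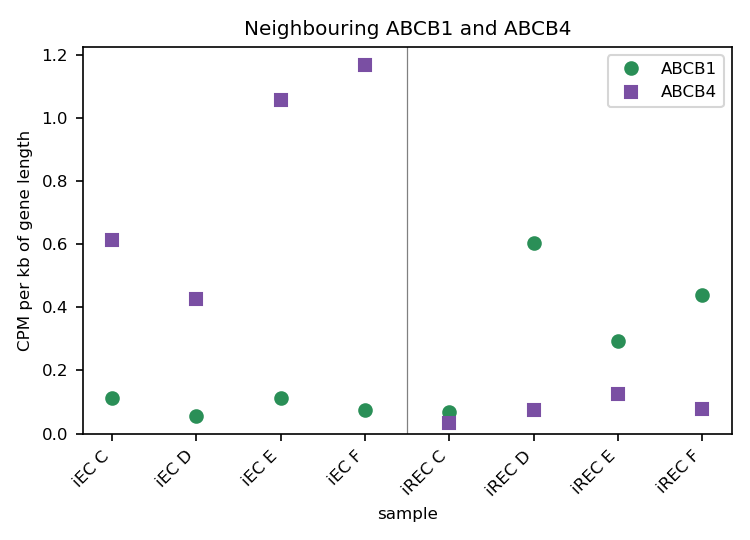
Levels of ABCB1 (circles) and ABCB4 (squares) in CPM per kb of gene length (y axis, from 0) in each sample (x axis). The squares lie above the circles in all 4 iEC samples, from 0.425 to 1.17 CPM per kb, and below them in all 4 iREC samples, from 0.0339 to 0.126.

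The outermost RefSeq start of ABCB1 is shown because both neighbours of the locus were called. The window of 220 bases (chr7:87713326-87713545, GRCh38.p14, minus strand) had a GC content of 40.9% and no match to any motif searched, so nothing is in capitals.
ABCB1: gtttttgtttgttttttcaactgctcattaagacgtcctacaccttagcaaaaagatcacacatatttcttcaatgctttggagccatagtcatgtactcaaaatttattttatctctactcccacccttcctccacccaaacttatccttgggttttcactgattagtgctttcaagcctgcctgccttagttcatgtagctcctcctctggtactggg
A further RefSeq window of ABCB1 that lies inside the gene had a GC content of 55.0% and held 2 CCAAT boxes and 1 receptor core. Because it overlapped annotated exons, it is described here without its letters.

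ABCB10, a mitochondrial partner of heme synthesis and the highest of the subfamily, stood at 61.8, 57.4, 54.3 and 47.7 CPM in iEC and 68.5, 49.5, 51.6 and 42.5 in iREC, with overlapping groups and an edgeR adjusted p of 0.816. ABCB8 likewise overlapped, with means of 29.3 and 27.6 CPM. ABCB6, linked to porphyrin transport, and the lysosomal peptide carrier ABCB9 had means of 1.59 and 2.20 CPM and of 6.49 and 6.94 CPM, and neither was called. Both are uncertain, since AC068946.2 covers 54.7% of the exon bases of ABCB6 and OGFOD2, on the other strand, 12.5% of those of ABCB9. ABCB5 and the bile salt pump ABCB11 had 5 and 8 reads in all, and no read of ABCB11 was in iEC.

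In subfamily ABCC, 6 of 11 members were tested, ABCC6 rose and ABCC5 fell. ABCC5 exports cyclic nucleotides and nucleotide analogues, and its gene is on chromosome 3 from 183919934 to 184018015, minus strand. It stood at 81.2, 103, 82.0 and 71.2 CPM in iEC C to F and at 44.3, 33.0, 42.0 and 43.4 CPM in iREC C to F. The highest iREC sample stood far below the lowest iEC sample. The log2 fold change was -1.05 with an SE of 0.15, 2.07-fold higher in iEC, and the edgeR adjusted p was 0.00113. No single sample carried this call, since leaving each out gave 0.00156 to 0.0047.

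ABCC1 and ABCC4, exporters of glutathione conjugates, leukotrienes, cyclic nucleotides and prostaglandins, were not called. ABCC1 stood at 85.0, 95.5, 107 and 100 CPM in iEC C to F and at 120, 121, 141 and 98.2 CPM in iREC C to F. Samples C, D and E of iREC were above all iEC samples and iREC F was not, and the edgeR adjusted p was 0.123 (0.0451 without iREC F), with a log2 fold change of 0.31 and an SE of 0.13. ABCC4 stood at 30.1, 18.5, 52.4 and 31.4 CPM in iEC and at 40.4, 47.0, 43.7 and 39.0 CPM in iREC. The iREC samples lay inside the wider iEC range, with a log2 fold change of 0.36, an SE of 0.27 and an edgeR adjusted p of 0.359. With ABCC5 lower and these pumps not called, the 5 transporters usually named at endothelial barriers did not move together. ABCB1 and ABCG2 were called higher, ABCC5 was called lower, and ABCC1 and ABCC4 were not called. The call on ABCB1 held in 1 of the 8 fits that left a sample out, and that on ABCG2 in all 8.

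ABCC6 supports the release of ATP that yields pyrophosphate, an inhibitor of calcification, and lies on chromosome 16 (16148928 to 16223522, minus strand), where its 3′ end is 5853 bases from that of ABCC1. Its reads numbered 7, 6, 18 and 15 in iEC C to F and 29, 39, 69 and 30 in iREC C to F. In CPM this was 0.455, 0.379, 1.07 and 1.07 against 1.90, 2.78, 4.21 and 1.97, with no overlap. The log2 fold change was 1.86 with an SE of 0.46 and an edgeR adjusted p of 0.0166 (0.0533 without iEC C). The value is uncertain because the near-identical pseudogenes ABCC6P1 and ABCC6P2 could share its reads. ABCC6P1 had means of 0.0158 and 0.502 CPM, and ABCC6P2 of 0.446 and 0.945 (edgeR adjusted p 0.186). The RefSeq window of its outer start (chr16:16223525-16223744, GRCh38.p14, minus strand) is printed because it borders a called gene without touching an exon. It had a GC content of 70.5% and no motif match.
ABCC6: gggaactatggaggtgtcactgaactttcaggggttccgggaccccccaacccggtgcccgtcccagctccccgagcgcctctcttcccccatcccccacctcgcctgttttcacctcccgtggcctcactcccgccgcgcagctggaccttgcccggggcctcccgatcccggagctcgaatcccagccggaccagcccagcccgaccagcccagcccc
Its GC content was above that of the printed outermost windows of ABCG2 and ABCB1. It was not above that of the ABCG2 windows of the starts at bases 88158639 and 88158859 (74.1% each), and the start used is not known.

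Other ABCC members were low or level. ABCC10 stood at 43.8, 48.7, 60.8 and 53.4 CPM in iEC and 41.2, 42.3, 57.2 and 38.8 in iREC, and was not called (edgeR adjusted p 0.392). ABCC2, the apical conjugate pump of liver and kidney, had means of 2.09 and 3.98 CPM and was not called (0.185). The sulfonylurea receptors ABCC8 and ABCC9, which regulate potassium channels rather than carry a substrate, had 7 and 21 reads in all. ABCC9, also a pericyte marker, had 3, 7, 2 and 4 reads in iEC C to F and 0, 0, 0 and 5 in iREC C to F. Their channel partners KCNJ8 and KCNJ11 were below the filter too. ABCC3, ABCC11 and ABCC12 had 21, 18 and 5 reads.

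Subfamily ABCA, all 12 of which passed the filter, had 2 members higher in iREC (ABCA6 and ABCA9) and 2 lower (ABCA3 and ABCA7). Its median log2 fold change was 0.70. ABCA3, which packs lipid into lamellar bodies and is best known in the lung, was the most abundant of the subfamily in iEC. It stood at 143, 160, 227 and 310 CPM in iEC C to F and at 131, 97.2, 131 and 93.9 CPM in iREC C to F. Every iREC sample was lower than every iEC sample, although iREC C and E lay close to iEC C. It fell by 0.89 on the log2 scale (SE 0.25, edgeR adjusted p 0.0281). The call was lost without iEC E, iEC F, iREC D or iREC F (0.0521 to 0.0841).

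ABCA1 loads cholesterol and phospholipid onto apolipoprotein A-I. It stood at 105, 94.9, 76.9 and 164 CPM in iEC C to F and at 142, 250, 341 and 148 CPM in iREC C to F. The means of 110 ± 37.8 and 220 ± 94.8 CPM (SD, n = 4) differed, but iEC F lay above iREC C and iREC F. The log2 fold change was 0.999 with an SE of 0.33, and the edgeR adjusted p of 0.052 missed the threshold. It passed without iEC F (0.0275), without iREC C (0.0352), without iREC F (0.0303) and with DESeq2 (0.0251). It also passed with library size alone (0.0474) and with no filter (0.0413). Of the 8 fits that left 1 sample out it passed in 3, and the highest adjusted p was 0.142. With a replicate block it did not pass (0.122). The pair of cholesterol exporters therefore gave opposite estimates, ABCG1 being called lower and ABCA1 estimated higher without a call.

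ABCA7, which flips phospholipids and is a risk gene of Alzheimer disease, stood at 6.76, 11.7, 12.4 and 15.7 CPM in iEC C to F. In iREC C to F it stood at 1.96, 3.64, 5.37 and 7.01 CPM. The highest iREC sample was just above the lowest iEC sample. It fell by 1.37 on the log2 scale (SE 0.40, edgeR adjusted p 0.0339). The call was lost without iEC D, iEC E, iEC F, iREC C, iREC D or iREC E (0.0504 to 0.0964). Its window (chr19:1039857-1040076, GRCh38.p14, plus strand) is shown as the only printed one with several motif matches. Capitals mark, in order, a GC box, a CCAAT box and the core of the receptor element.
ABCA7: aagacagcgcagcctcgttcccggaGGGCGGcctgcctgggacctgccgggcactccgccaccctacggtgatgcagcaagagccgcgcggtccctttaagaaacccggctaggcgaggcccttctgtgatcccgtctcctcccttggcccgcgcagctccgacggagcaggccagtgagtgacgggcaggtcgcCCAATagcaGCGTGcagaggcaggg
Of its bases 68.6% were G or C.

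ABCA8, ABCA9, ABCA6, ABCA10 and ABCA5 lie side by side on chromosome 17, all on the minus strand, and are thought to handle lipids. ABCA6 (69078702 to 69141888) had 5, 8, 9 and 0 reads in iEC C to F and 26, 71, 75 and 38 in iREC C to F. In CPM this was 0.325, 0.506, 0.533 and 0 against 1.70, 5.07, 4.58 and 2.49, so the lowest iREC sample exceeded the highest iEC sample. The log2 fold change was 3.29 with an SE of 0.68, 9.75-fold, and the edgeR adjusted p was 0.00752 (0.00589 to 0.0274 without 1 sample). Next to it, ABCA9 stood at 1.04, 1.33, 0.592 and 0.501 CPM in iEC C to F and at 3.21, 3.78, 3.66 and 0.983 CPM in iREC C to F. Samples C, D and E of iREC were above the iEC range and iREC F was inside it. The log2 fold change was 1.74 with an SE of 0.50 and an edgeR adjusted p of 0.0312. That call was lost without iEC C, iEC E, iEC F, iREC C, iREC D or iREC E (0.0605 to 0.0882) and with limma-voom (0.0662). The antisense gene ABCA9-AS1 overlaps 5.84% of its exon bases and had means of 0.109 and 0.0458 CPM, and whether reads were counted by strand is not given in the sources used here.

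The other genes of that cluster were not called. ABCA8 had 10, 21, 25 and 8 reads in iEC and 6, 15, 11 and 78 in iREC, so a single sample, iREC F, stood above the rest. ABCA10 had means of 0.774 and 0.786 CPM, and ABCA5 of 8.99 and 11.3 CPM. Along the chromosome the log2 fold changes were 0.83, 1.74, 3.29, 0.047 and 0.33, highest for the middle gene. The window before the RefSeq start of ABCA6 (chr17:69141926-69142145, GRCh38.p14, minus strand) is printed for the highest log2 fold change among the tested members. Capitals mark its only match, a CCAAT box read on the other strand.
ABCA6: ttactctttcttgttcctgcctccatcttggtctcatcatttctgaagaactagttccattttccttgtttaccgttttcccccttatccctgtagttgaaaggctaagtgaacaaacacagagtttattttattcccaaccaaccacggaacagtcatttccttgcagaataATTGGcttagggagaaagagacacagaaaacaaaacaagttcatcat
Its GC content was 39.1%.

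The remaining ABCA genes did not pass the test. ABCA2, a lysosomal lipid transporter, had means of 23.8 and 14.0 CPM (edgeR adjusted p 0.162). ABCA4, which clears retinoids from photoreceptor discs, was present at 13.7, 17.9, 8.17 and 11.6 CPM in iEC C to F and 24.9, 18.3, 24.5 and 10.4 in iREC C to F, with overlapping groups (edgeR adjusted p 0.199). The retinal neuron and pigment epithelium list of 7 listed genes summed to 4.72 to 6.22 CPM in iEC and 3.08 to 9.04 in iREC. The highest sum was that of iREC F, and the member RPE65 had means of 0 and 0.116 CPM. ABCA12, the lipid transporter of skin, had 0, 5, 11 and 11 reads in iEC and 2, 24, 16 and 45 in iREC, again highest in iREC F. ABCA13 had means of 1.40 and 2.46 CPM, and neither gene was called.

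None of the 3 tested members of subfamily ABCD was called. ABCD3, which brings fatty acids into peroxisomes, stood at 64.4, 50.4, 40.5 and 48.6 CPM in iEC C to F and 49.99, 47.7, 45.3 and 56.0 in iREC C to F. ABCD4, which works with lysosomal cobalamin, stood at 58.8, 50.2, 49.96 and 39.4 CPM in iEC and 56.1, 49.3, 63.8 and 36.7 in iREC. The groups overlapped for both, with log2 fold changes of -0.035 (SE 0.15) and 0.054 (SE 0.19) and edgeR adjusted p values of 0.892 and 0.863. ABCD2, a peroxisomal relative of ABCD3, was below the filter, with 1, 0, 0 and 0 reads in iEC and 4, 2, 5 and 10 in iREC. It was under the threshold in the authors' deposited table, with an adjusted p of 0.0244, and in the fit without a filter.

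Subfamilies ABCE and ABCF act on ribosomes. ABCE1 splits ribosomes after termination, and it stood at 214, 176, 180 and 131 CPM in iEC C to F and 163, 151, 133 and 168 in iREC C to F. The groups overlapped, and the edgeR adjusted p was 0.423. ABCF1, which binds initiation factor eIF2, stood at 163, 172, 172 and 162 CPM in iEC C to F and at 116, 112, 111 and 132 in iREC C to F. Each group was tight, with means of 167 ± 5.14 and 118 ± 9.96 CPM (SD, n = 4), and they did not overlap. ABCF1 fell by 0.50 on the log2 scale (SE 0.10, edgeR adjusted p 0.00611), the smallest change among the 12 called members and 1 of the 5 that stayed called without each sample. ABCF2 was lower in every iREC sample, with 32.4, 28.9, 28.5 and 31.6 CPM in iEC C to F and 21.7, 22.0, 20.5 and 27.3 in iREC C to F. It missed the threshold with an edgeR adjusted p of 0.0525, and passed without iREC F (0.0207) and with limma-voom (0.0491). AC021097.2, annotated on the same strand and not listed in the table, covers 45.8% of the exon bases of ABCF2, so its counts may be split. ABCF3 stood at 58.8, 61.9, 61.6 and 68.1 CPM in iEC and 55.4, 55.4, 63.9 and 50.6 in iREC (edgeR adjusted p 0.362).

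Partner genes of the family were read from 11 lists of 160 genes, of which 136 were tested and 45 called, 24 higher and 21 lower. Beside these and the counts per list below stand the shares over all tested genes, 25.0% called, 13.2% higher and 11.7% lower. Without iREC D, 28 were called, and without iREC E and iEC E, 31 and 30. Among nuclear receptors and other regulators of ABC genes, 8 of 17 tested were higher and 2 lower. The liver X receptor NR1H3 rose from 5.23 to 19.9 CPM, PPARG from 1.58 to 20.7 and MYLIP, a ligase that degrades the low-density lipoprotein receptor, from 10.1 to 57.7. Their edgeR adjusted p values were 0.00377, 0.000362 and 0.00258. In iREC C to F, NR1H3 stood at 18.5, 23.7, 24.4 and 12.9 CPM, above the iEC maximum of 8.34. The sterol regulators SREBF1 and SREBF2 fell, from 91.1 to 37.1 and from 233 to 153 CPM. The aryl hydrocarbon receptor AHR itself was not called, with 23.95 and 26.2 CPM, and the pregnane X receptor NR1I2 was below the filter with means of 0.114 and 0.0796 CPM.

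**Figure D5:**
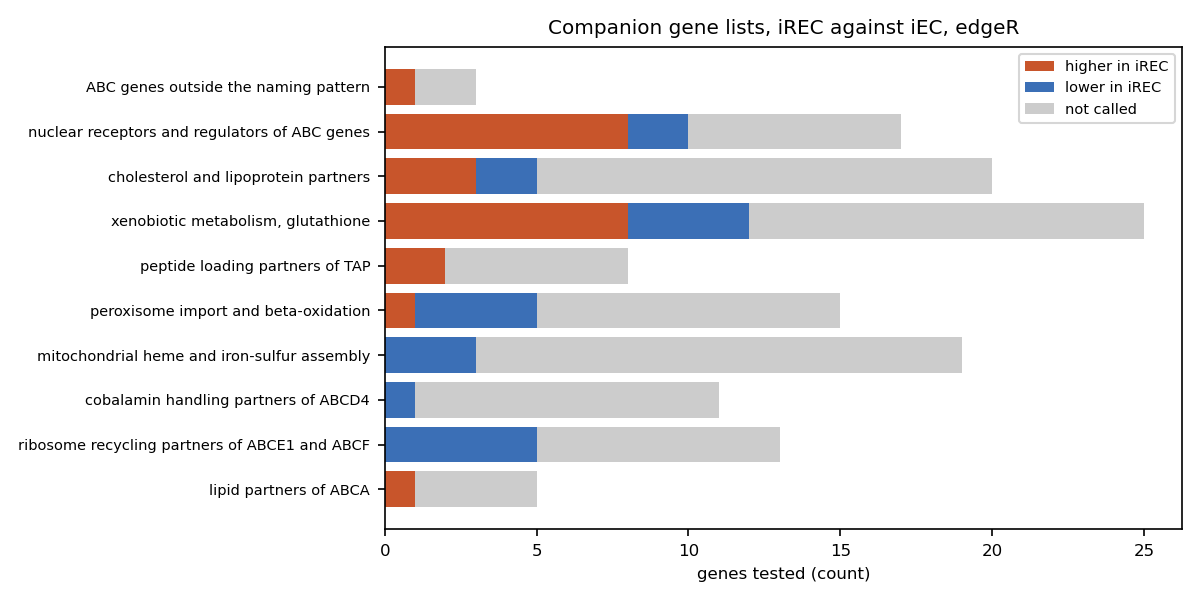
Number of tested genes (x axis) in 10 partner lists (y axis) that were called higher in iREC, called lower or not called by edgeR. The list of potassium channel partners is not drawn because none of its genes was tested. The regulators and the xenobiotic list have the most calls, 10 and 12, and the ribosome list has 5, all lower.

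Cholesterol and lipoprotein partners gave 3 higher and 2 lower calls among 20 tested. The phospholipid transfer protein PLTP had means of 7.10 and 121 CPM and rose (edgeR adjusted p 2.14e-05). OSBPL1A rose from 24.03 to 44.7 CPM, and CYP27A1, which makes a ligand of liver X receptors, from 2.90 to 8.41. The call on CYP27A1 was lost without iEC C, iEC D, iEC E, iREC D or iREC E (0.0551 to 0.0811). The lysosomal cholesterol exporter NPC1 fell from 83.7 to 28.8 CPM and the esterase NCEH1 from 135 to 33.4. APOE was not called. The 5 calls compare with 25.0% of all genes tested, so the list's share was that of the background.

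In the list of xenobiotic oxidation, conjugation and glutathione supply, 8 of 25 tested were higher and 4 lower. CYP1A1, a classic target of the aryl hydrocarbon receptor, stood at 38.7, 38.6, 11.1 and 30.5 CPM in iEC C to F and at 67.5, 321, 353 and 133 in iREC C to F. The groups did not overlap, and the edgeR adjusted p was 0.00605. The glutathione transferases GSTM3 and GSTM4 rose from 8.28 to 39.7 and from 3.11 to 16.0 CPM. GSTO1, MGST2 and MGST3, of the same broad function, fell from 246 to 112, from 41.5 to 16.7 and from 113 to 63.0 CPM. Enzymes that feed conjugates to ABCC pumps were therefore called in both directions.

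Of the ABC genes whose symbols lie outside the pattern, TAP1 and TAP2, which carry peptides for antigen presentation, had means of 35.4 and 37.8 CPM and of 33.4 and 29.9 CPM without a call. The chloride channel CFTR, an ABCC member by sequence, stood at 0.325, 0.316, 0.651 and 0.429 CPM in iEC C to F and at 0.0654, 6.64, 1.16 and 52.9 in iREC C to F. Its level was by far the highest in iREC F, the sample with the highest epithelial sum. Its edgeR adjusted p was 0.0378, and the call was lost without iREC F (0.099, log2 fold change 2.57 in place of 5.11), iREC D or any of the iEC samples (0.0578 to 0.0917), and with limma-voom (0.443). Of 8 tested peptide loading partners, TAPBPL and ERAP1 were called higher, with 5.01 and 10.3 CPM and with 74.1 and 102. Neither was called without iEC D or iREC D. TAPBPL was also lost without iEC E, iEC F or iREC E and with a replicate block, and ERAP1 without iEC C and with no filter.

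Of 15 tested peroxisomal genes, HSD17B4 was called higher, from 84.7 to 127 CPM, and 4 were lower, including ACSL1, from 19.0 to 7.004, and PEX5, from 40.2 to 29.1. Without iREC D 2 of the list were called. HSD17B4 was lost without iEC C, iEC E or iREC D, and PEX5 without iEC C, iEC D, iREC C, iREC D or iREC E. In the list of mitochondrial heme and iron-sulfur assembly, to which ABCB10 belongs by function, 3 of 19 were lower and none higher. These were the iron importer SLC25A37, from 62.1 to 35.7 CPM, ALAD, from 49.4 to 32.3, and UROD, from 117 to 84.2, and the number ran from 1 without iEC E, iREC C, iREC D or iREC E to 5 without iREC F. ALAD was lost without iEC D, iEC E, iEC F, iREC C, iREC D or iREC E (0.0512 to 0.102). UROD was lost in every alternative other than scaling by library size and leaving out iEC D. Of 11 tested cobalamin partners, MMADHC alone was called, from 105 to 70.3 CPM, and it was lost without iEC C, iEC E, iREC C, iREC D or iREC E. Among 13 ribosome recycling and initiation partners, 5 were lower and none higher, among them EIF2S2, from 257 to 170 CPM, GCN1, from 321 to 229, and GSPT1, from 277 to 208. The list's count ran from 2, without iEC E, iREC D or iREC E, to 7, without iREC F. GCN1 was lost without iEC D, iEC E, iREC D or iREC E, and GSPT1 without any sample other than iEC F or iREC F. Like ABCF1, the called genes of this list were lower in iREC, by less than 2-fold for the 3 named. Of 5 tested lipid partners of ABCA proteins, ASAH1 rose from 114 to 226 CPM, and was not called without iEC C, iEC D, iEC E, iREC D or iREC E.

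Promoter windows were available from RefSeq for 35 of the 45 members, 53 windows in all. The median GC content was 60.9% over these windows and 57.7% over all 35116 windows of the same length. Motifs were searched on both strands. The GC box GGGCGG was found in 23 of the 53 windows of members, and in 38.9% of all windows. The receptor core GCGTG was found in 20 of the 53 and in 29.1% of all windows. For CCAAT the values were 11 and 29.8%, and for TATAAA 3 and 8.08%. The E-box CACGTG was found in 9 of the 53 and in 5.40% of all windows. For TGACNNNGC, the core of the antioxidant element, the values were 9 and 9.44%. The DR4 pattern bound by liver X receptors was in no member's window and in 0.0142% of all windows. Members with several windows were counted once per window, and a match says only that the letters are there.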

How the data were processed

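Poly-A RNA libraries of 8 samples, 4 iEC and 4 iREC, were analysed, grouped by their labels. Per the submitters' processing notes, fastp, HISAT2 2.0.5 and hg38 were used, and the counting program is not given in the sources used here. Libraries carried dUTP in the second strand, per the labels' protocols. The authors deposited whole-number counts per gene, which were used for every test, together with FPKM values, normalized counts (a signal equal to the count over 1 size factor per sample), log2 fold changes and adjusted p-values per the file headers. FPKM served as a check of the order of levels. The name and length of each gene came from the same table, and listed genes had at least 2 counts in all.

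Here edgeR 4.0.16 was run on the deposited counts with filterByExpr, TMM scaling and a quasi-likelihood F-test of iREC against iEC. Benjamini-Hochberg adjustment covered all 15330 genes tested, and the threshold was 0.05. CPM used TMM-scaled library sizes, and levels between genes used CPM per kb of deposited gene length. Fold changes are those of the fit. Totals and the floor of 3 counts, given in the results, cover counting error only. Alternatives were DESeq2 size factors, library size alone, no filter, a filter of 1 CPM and a mean of 50 counts, DESeq2 1.42.0, limma-voom 3.58.1, a replicate block and leaving out each sample. Same-letter samples deviated from their group means with correlations from -0.0794 to 0.250, so the letters were not taken to pair samples. The fit was tested on simulated data.

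Members and lists were chosen with earlier results of these data known. Values in every sample are printed for ABCB1, ABCG2, ABCC1, ABCC4 and ABCC5, each called member reported and the 2 highest members per subfamily in CPM per kb. From each partner list up to 3 called genes per direction are named, by fold change, with TAP1, TAP2 and CFTR always, and other genes were chosen after their values were seen. Sequences are RefSeq windows on GRCh38.p14, printed for called members where the 220 bases hold no GENCODE 29 exon. Some genes are not reported here.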

Additional observations from a re-analysis of the deposited data

Results flagged for a closer look

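Within each group of 4 samples, the highest and lowest values of the named genes and other tested members were compared with the others by Dixon's ratio at the 95% level. Of 132 groups examined, 4 held a sample set apart, where chance alone would give about 7. CFTR stood at 52.9 CPM in iREC F and at 0.0654 to 6.64 CPM in the other iREC samples. GSTO1, a glutathione transferase that was called lower in iREC, stood at 364 CPM in iEC F and at 194 to 217 CPM in the other iEC samples. ABCA8 stood at 5.11 CPM in iREC F and at 0.393 to 1.07 CPM in the other iREC samples. ABCB6 stood at 1.57 CPM in iREC D and at 2.36 to 2.49 CPM in the other iREC samples.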

How the results depend on the processing

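Of the 12 members called, all 12 were also called with DESeq2 size factors (12 calls), library size alone (14) and DESeq2 (14), 11 without a filter (13), 10 with limma-voom (11), 8 with the stricter filter (8) and 9 with a replicate block on the shared letters (9). The stricter filter tested fewer genes, which left 1 member called higher, 2 in ABCA and 1 in ABCC, and gave a median log2 fold change of -0.14. With limma-voom 3 were higher and ABCF had 2, as it had with library size alone. ABCD had 1 call without a filter and 1 with DESeq2. With the replicate block ABCB had 1 call. Leaving out 1 sample gave 7 to 13 members called, 2 to 6 higher and 4 to 7 lower, with 1 to 4 in ABCA, 1 to 2 in ABCB, 1 to 3 in ABCC, 1 to 2 in ABCF and 1 to 2 in ABCG. It gave 28 to 47 partner genes and 2660 to 4214 of all genes. Genes near 0 changed sign: ABCB10 ran from -0.21 to 0.030, above 0 without iREC F, ABCD3 0.084 without iEC C and 0.0084 without iREC E, ABCD4 (-0.064 to 0.18) -0.043 without iEC F and -0.064 without iREC E, and TAP1 (-0.13 to 0.62) -0.13, -0.11 and -0.051 without iEC C, iEC D and iREC F. The cause was not tested where no construction of the alternative shows it. Depth limits the 11 scarce members, for which 3 counts are 0.177 to 0.214 CPM.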
